A study of Mus musculus with 6 samples.

Results

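The clustered protocadherins form a run of neighbouring genes on mouse chromosome 18, in 3 groups named alpha (Pcdha), beta (Pcdhb) and gamma (Pcdhg). The array probes examined here were all non-control probes whose start lies on chr18:37080000-38010000 (mm9), a rule that uses position and no measured value. It found 470 probes, of which 1 was left out for a spot flag, leaving 469 of the 174278 probes on the array. Neighbouring probes with starts at most 1000 bp apart were joined into regions of at least 3 probes. This gave 60 of the array's 21987 regions, holding 467 of the 469 probes, while the other 2 probes belong to a region that begins before the span and was not counted.

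DNA methylation was measured in mouse offspring at 32 weeks of age, on 6 two-colour arrays. In 3 of them the mother's diet had been restricted in the trace element chromium, and in 3 the mother had received a control diet. The labels name no strain, sex or litter, so p-values reflect no more than the spread among the samples at hand, which may be technical. Liver is the tissue in the titles and the tissue label, but the extraction text speaks of fat, and the tissue was not checked against marker genes because the files pair no gene symbol with a probe.

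Each array compared DNA pulled down with an antibody against methylated cytosine (IP, red dye) with input DNA of the same sample (green dye), with no dye swap. The values below are log2 ratios of IP over input, centred so that the median probe of each array is 0, and a region's level is the mean over its probes. A higher level is taken as more methylated DNA. Levels were not corrected for the density of sites that can be methylated, so differences between regions need not be differences in methylation. The median input signal per array, with background subtracted but before the scaling of each dye, was 38.1 to 98.4 intensity units. No member probe was saturated. Levels of all 21987 regions correlated at 0.909 to 0.985 between pairs of arrays, and those of the 60 protocadherin regions at 0.867 to 0.966.

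Clustered protocadherins are cell-surface adhesion proteins, known mainly for giving neurons distinct identities through the combination each cell makes. In the alpha and gamma groups each variable exon has a promoter of its own and is joined to constant exons shared by its group, while the beta genes lack such constant exons. In neurons the choice among these promoters is known to involve binding of CTCF and loss of DNA methylation at the promoter used.

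The member probes fall into 3 segments divided by the widest probe-free gaps of the span, 119391 and 119360 bp, the next widest being 68241 bp. The first segment, chr18:37080033-37303991, holds 115 probes and 14 regions. The second segment, chr18:37423352-37678488, holds 171 probes and 22 regions. The last segment, chr18:37797880-37979422, holds 183 probes and 24 regions. They are called alpha, beta and gamma after the order of the gene groups along the chromosome. RefSeq's gene order in a later mouse build (GRCm38.p6) runs through 14 Pcdha genes, ending in Pcdhac1 and Pcdhac2, then 22 Pcdhb genes. Slc25a2 and Taf7 follow, and after them 22 Pcdhg genes, ending in Pcdhgc3, Pcdhgc4 and Pcdhgc5. The numbers of genes and regions per segment are alike, but coordinates were not carried between builds. No region was therefore assigned to a gene or checked to hold a promoter, and region numbers are not gene numbers. The first 2 gamma regions, which end 15390 bp before the third begins, may lie outside the Pcdhg genes. A region spanned a median of 1672.5 bp with 5 to 9 probes.

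The protocadherin probes were dimmer than most of the array. On all 6 arrays, both channels were well above background for 201 of 469 probes (42.9%), against 67.5% of all probes. For the input channel alone, which carries no enrichment, the shares were 48.8% and 73.6%, and for IP they were 54.8% and 75.8%. The median log2 input signal of a region, here the processed signal after the scaling of each dye, was 7.78 in the span and 9.04 over all regions. Neither channel was above background on any array for 19.4% of the member probes and 5.60% of all probes. Such dim probes carry a ratio of background signals, so the main results are also given from the brighter probes. Members of this family also resemble each other in sequence, and whether probes hybridised to more than 1 member was not tested.

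Brightness was uneven along the segments. In the alpha segment the last 2 regions, which stand 68241 and 52173 bp from the region before them, had 70.6% of their probes above background in both channels, against 37.5% in the first 12. In the gamma segment the last 3 regions had 80.0%, against 38.6% in regions 3 to 21. Within regions the side of higher coordinate was the brighter one. Its probes had input above background in 64.4% of cases in alpha, 53.4% in beta and 64.0% in gamma, against 35.2%, 33.7% and 37.3% on the side of lower coordinate.

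The protocadherin regions spanned a wide range of levels, and the alpha segment lay lowest. The level of a region was tested against the array median with limma over all regions and Benjamini-Hochberg adjustment at 0.05. Of the 60 regions 14 lay above the array median (23.3%, against 31.3% of all regions), 31 lay below (51.7%, against 48.8%), and 15 passed in neither direction. By segment, alpha had 0 regions above and 9 below, beta had 7 above and 11 below, and gamma had 7 above and 11 below. Gamma regions 1 and 2, which may lie outside the Pcdhg genes, are among its 7 above. Median levels were -0.46 in alpha, -0.16 in beta and -0.05 in gamma, beside -0.20 for the whole span and -0.11 for all regions. The count above the median was 7 (16.0% of all regions), with 43 below (66.9% of all regions), when arrays were centred on probes well above background, a step that lowers every level by 0.22. With normexp background correction it was 14 (45.1% of all regions), with 33 below (36.1% of all regions). In the authors' value table it was 9 (39.4% of all regions), with 48 below (49.0% of all regions).

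**Figure D1:**
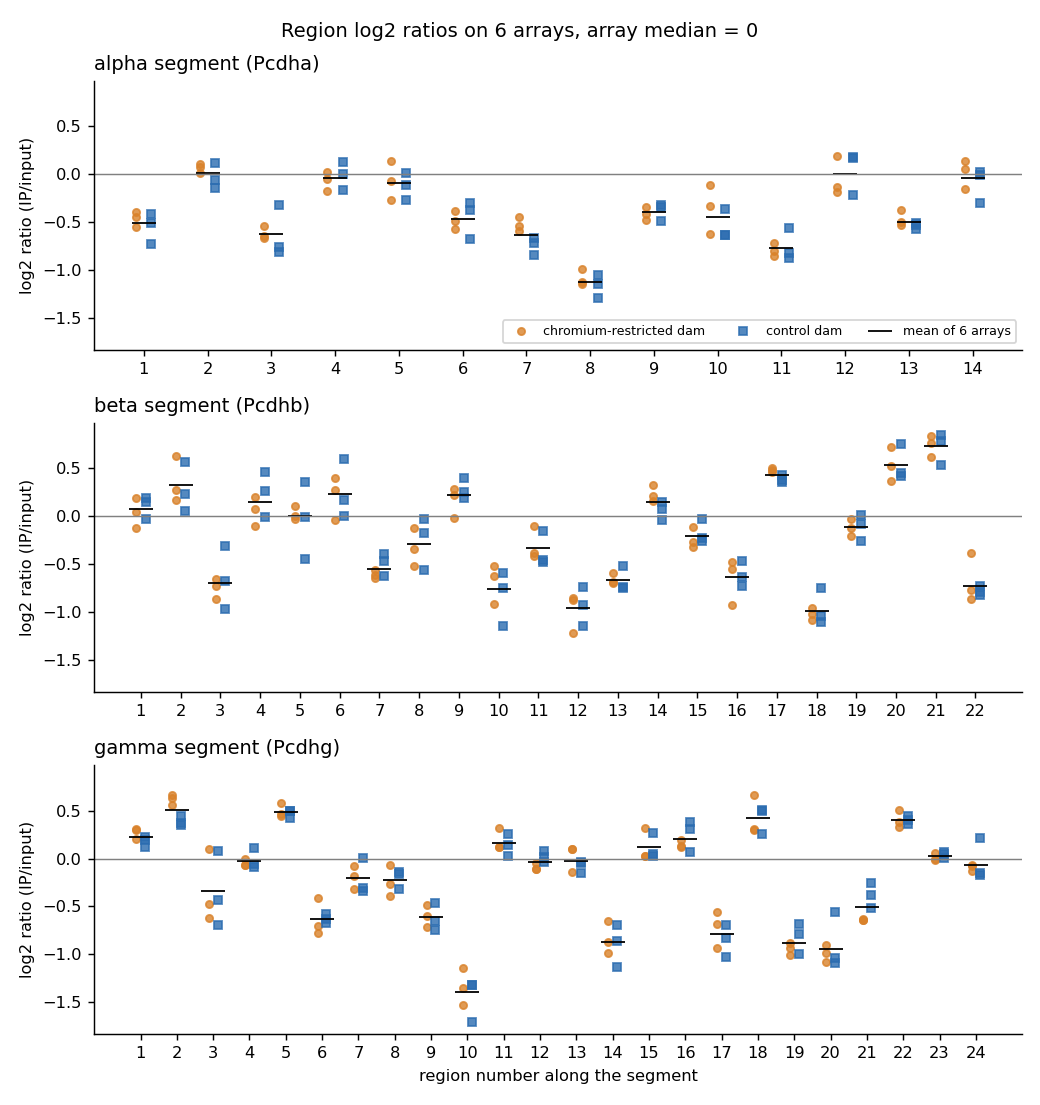
Log2 ratio of IP over input (vertical axis, array median at 0) of each of the 60 regions, numbered in order along the segment, on 3 chromium-restricted arrays (circles) and 3 control arrays (squares); the line is the mean of 6 arrays. Levels run from -1.39 in gamma region 10 to 0.73 in beta region 21, and the arrays of both groups lie together in most regions.

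With the processed signals, the lowest level of the span was that of gamma region 10 (chr18:37865637-37867274). Its log2 ratio was -1.35, -1.52 and -1.14 under chromium restriction (arrays 1, 2 and 3, in this order throughout) and -1.70, -1.32 and -1.31 under the control diet (arrays 1, 2 and 3 likewise). Every array was thus more than 1 log2 unit below the array median, and the mean was -1.39 ± 0.19 (SD, n = 6). limma's adjusted p for this level was 3.9e-07. Only 1 of its 8 probes was above background in both channels. The rank depends on the processing: with normexp beta region 18, at -0.61, lay below its -0.55, and in the authors' value table beta regions 10 and 18, at -1.51 and -1.43, lay below its -1.37.

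Alpha region 8 (chr18:37150821-37152540) came next with the processed signals. It read -1.14, -1.12 and -0.99 on the chromium-restricted arrays and -1.29, -1.05 and -1.15 on the control arrays. The groups overlapped, and the mean was -1.12 ± 0.10 (SD, n = 6). Of its 8 probes 2 were above background in both channels. With normexp alpha regions 11 and 10, at -0.55 and -0.53, lay below its -0.50. In the authors' value table alpha regions 10, 6 and 11 lay below it. The next lowest of the alpha segment were region 11 (chr18:37169216-37170975) at -0.77 ± 0.12 (SD, n = 6) and region 7 (chr18:37132278-37133990) at -0.63 ± 0.14 (SD, n = 6). With normexp alpha region 7 was at -0.12, above most alpha regions. In the beta segment the lowest were region 18 (chr18:37647848-37649414) at -0.99 ± 0.13, region 12 (chr18:37593980-37595709) at -0.96 ± 0.18 and region 10 (chr18:37570190-37571637) at -0.75 ± 0.24 (SD, n = 6 each). Region 10 of beta had 0 of 7 probes above background in both channels. After region 10, the lowest of gamma were region 20 (chr18:37920156-37921898) at -0.94 ± 0.20 and region 19 (chr18:37914140-37915828) at -0.88 ± 0.12 (SD, n = 6 each). With all 60 regions set in order of level by the processed signals, 3 of the 59 steps between neighbours were larger than the larger SD of the pair. They were the step of 0.27 from gamma region 10 to alpha region 8, that of 0.13 from alpha region 8 to beta region 18, and that of 0.19 between beta regions 20 and 21 at the top.

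With the processed signals the highest level was that of beta region 21 (chr18:37672010-37673679), near the end of the beta segment. It had 0.84, 0.76 and 0.62 on the chromium-restricted arrays and 0.54, 0.84 and 0.78 on the control arrays. All 6 arrays were above 0.5, with a mean of 0.73 ± 0.13 (SD, n = 6), higher than 97.6% of all regions. limma's adjusted p was 2.8e-06. With normexp beta region 20 was at 0.471 and region 21 at 0.465. In the authors' value table gamma regions 5 (0.51) and 22 and beta regions 20 (0.47) and 17 lay above the 0.33 of region 21. There region 21 was higher than 80.2% of all regions.

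Close to it along the chromosome, beta region 20 (chr18:37662641-37664314) had 0.37, 0.53 and 0.72 on the chromium-restricted arrays and 0.45, 0.42 and 0.76 on the control arrays. Array 3 of each group was the highest there, and the mean was 0.54 ± 0.16 (SD, n = 6). Beta region 17 (chr18:37643413-37644995) stood at 0.44 ± 0.06 (SD, n = 6). Beta region 18, 2852 bp after it, was among the lowest of the span, and region 22, 3032 bp after region 21, was at -0.72 ± 0.17 (SD, n = 6). With the processed signals, high and low regions thus lay side by side within the beta segment. Of 8 probes each, both channels were above background for 5 in region 17, 6 in region 20 and 3 in region 21. In the low regions 18 and 22 it was 2 each, too few for these to be kept among bright regions.

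In gamma the highest were region 2 (chr18:37803359-37804916) at 0.50 ± 0.13, region 5 (chr18:37832702-37834463) at 0.48 ± 0.06 and region 18 (chr18:37910136-37911849) at 0.42 ± 0.16 (SD, n = 6 each). Of these, region 2 may lie outside the Pcdhg genes. With normexp region 2 was at 0.11 and no longer passed (adjusted p 0.065 from limma). In the authors' value table it was at -0.12, below the median, and region 18 was at -0.03. Region 5 was the best supported of these by signal, with 7 of 9 probes above background in both channels. Its arrays read 0.58, 0.44 and 0.47 for chromium restriction and 0.42, 0.50 and 0.49 for control. Region 18 was followed by region 19, one of the 3 lowest of its segment, after 2290 bp.

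No alpha region lay above the array median by the test. Its highest were region 2 (chr18:37097752-37099203) at 0.02 ± 0.10, region 12 (chr18:37178584-37180310) at 0.0014 ± 0.20 and region 4 (chr18:37111043-37112841) at -0.04 ± 0.12 (SD, n = 6 each), with adjusted p of 0.71, 0.99 and 0.49 from limma. The sign of these 3 levels turned under other scalings: with normexp region 2 was at -0.16, region 12 at -0.08 and region 4 at 0.07.

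The 2 most distant alpha regions and the last 3 gamma regions, which are bright, differed among themselves. Alpha region 13 (chr18:37248552-37250239), with 8 of 9 probes above background, had -0.38, -0.52 and -0.49 on the chromium-restricted arrays and -0.56, -0.53 and -0.50 on the control arrays. All 6 arrays were below the median, with a mean of -0.50 ± 0.06 (SD, n = 6). Alpha region 14 (chr18:37302413-37303991) was at -0.04 ± 0.16 (SD, n = 6), with arrays on both sides of 0. Gamma region 22 (chr18:37964770-37966522) was at 0.40 ± 0.06, region 23 (chr18:37973444-37975183) at 0.03 ± 0.04 and region 24 (chr18:37977901-37979422) at -0.06 ± 0.14 (SD, n = 6 each), so that of these 5 regions 1 passed above, 1 below and 3 in neither direction. From their probes well above background alone, a filter that raises levels in part by construction, alpha region 13 passed below at -0.42. The others then passed above, alpha region 14 at 0.43 and gamma regions 22, 23 and 24 at 0.56, 0.21 and 0.19.

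The largest spread over arrays was that of gamma region 3 (chr18:37820307-37822048) and beta region 5 (chr18:37478795-37480341). Gamma region 3 read -0.48, -0.62 and 0.10 on the chromium-restricted arrays and -0.69, 0.07 and -0.43 on the control arrays, an SD of 0.34. Its adjusted p of 0.023 was lost without centring (-0.26, adjusted p 0.074) and without chromium-restricted array 1 or 2 or control array 1 or 3. Its 2 high arrays, chromium-restricted 3 and control 2, are those with the dimmest input. Beta region 5 read 0.11, -0.03 and 0.0030 for chromium restriction and -0.44, 0.36 and -0.0017 for control, an SD of 0.26, with control 1, the array with the brightest input, lowest and control 2, the dimmest, highest. Both regions had 2 probes above background in both channels. The median SD over arrays was 0.14 for the protocadherin regions and 0.11 for all regions.

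Restricting each region to probes well above background in both channels kept 32 of the 60 regions and changed their place on the array. This filter asks for IP signal and so takes out probes with a low ratio, among them the 23 member probes with input above background on 6 arrays and IP on 0, whose median was -2.55. It also kept fewer of the span's probes than of the array's (42.9% and 67.5%). Levels are therefore raised in part by construction. Of the 32 regions, 22 lay above the array median and 7 below (68.8% and 21.9%), beside 55% and 26.9% of the regions kept over the whole array. In beta 8 of 12 were above and 2 below, in gamma 11 of 12 above and 1 below, and in alpha 3 of 8 above and 4 below. The level was higher than with all probes in 31 of the 32 regions, the exception being alpha region 10. The median levels were -0.11 in alpha, 0.49 in beta and 0.32 in gamma, beside 0.17 for all regions.

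Among these, beta region 21 had the highest level, at 1.62 with an SE of 0.051, from 3 probes, higher than 99.95% of the regions kept. Gamma region 12 (chr18:37878911-37880579) moved from -0.03 with 7 probes to 0.94 with an SE of 0.069 from 3 probes. Beta region 7 (chr18:37500056-37501750) moved from -0.55, below the median, to 0.59, above it, from 4 of its 9 probes. The lowest was now alpha region 10 (chr18:37163674-37165273), at -0.999 with an SE of 0.053 from 3 probes, against -0.45 with all 8.

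**Figure D2:**
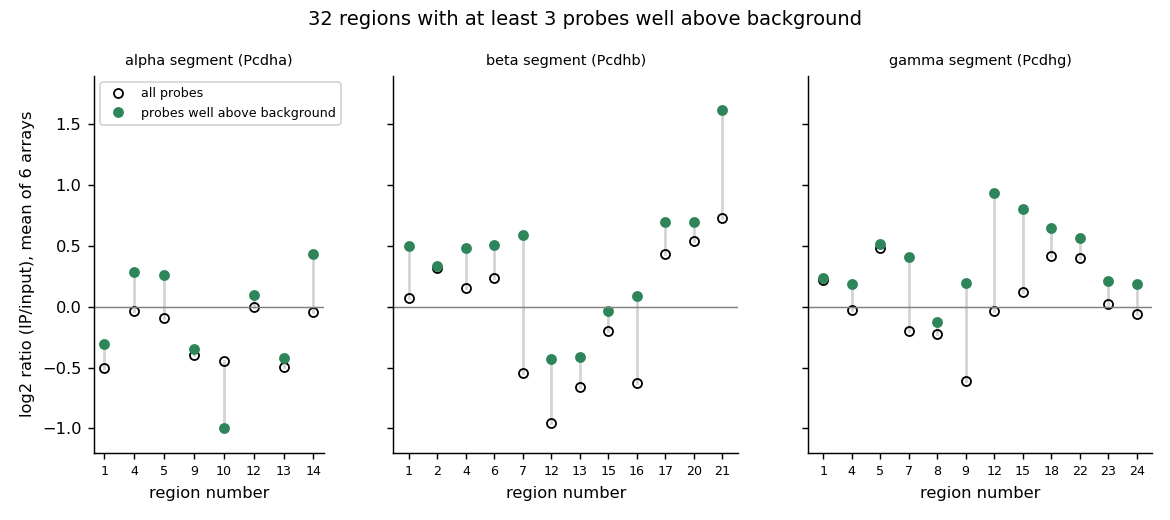
Mean log2 ratio of IP over input over 6 arrays for the 32 regions with at least 3 probes well above background, from all probes of the region (open circles) and from the probes well above background (filled circles). In beta and gamma every filled circle lies above its open circle, by up to 1.14 in beta region 7, and in alpha 7 of 8 do.

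As a whole, the alpha segment was lower than the other segments on each array. Its mean over regions was -0.38, -0.36 and -0.38 on the chromium-restricted arrays and -0.46, -0.40 and -0.41 on the control arrays. The beta mean was -0.18, -0.28 and -0.10 on the chromium-restricted arrays and -0.31, -0.06 and -0.17 on the control arrays. The gamma mean was -0.21, -0.27 and -0.14 on the chromium-restricted arrays and -0.28, -0.12 and -0.23 on the control arrays. Alpha was the lowest of the 3 on all 6 arrays.

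The difference of alpha from beta was -0.22 ± 0.10 (SD, n = 6), with a range of -0.35 to -0.08, and that of alpha from gamma was -0.19 ± 0.07 (SD, n = 6), with a range of -0.29 to -0.09. With probes well above background these differences were -0.51 and -0.52, and with the median over a region's probes in place of the mean they were -0.09 and -0.11. Beta and gamma differed by 0.025 ± 0.040 (SD, n = 6), with beta the higher on 4 of 6 arrays. Arrays here are repeat readings of the same regions, and no test over regions was made.

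The whole span lay below the other regions of the array with all probes, and above them only under the filter that asks for signal in both channels. With the processed signals its mean was -0.24 ± 0.07 and that of all other regions -0.17 ± 0.04 (SD, n = 6 each), a difference of -0.07 that was negative on 6 of 6 arrays, from -0.11 to -0.03. The difference was -0.13 with normexp and further from 0 in the authors' value table. With probes well above background the span's mean was 0.26 ± 0.02 and that of the others 0.13 ± 0.03 (SD, n = 6 each), and the span was higher on all 6 arrays. Against the 493 other regions of chromosome 18 the difference was -0.09 with all probes and 0.15 with bright probes. A filter on the input channel alone, which does not select on IP signal, was added after these values were seen. It kept 41 of the 60 regions and put the span at -0.05 from other regions and -0.07 from others of chromosome 18, with 19 regions above the median and 18 below (41.1% and 42.4% of all regions). Under it the difference of alpha was -0.83 from beta and -0.50 from gamma, and beta was higher than gamma by 0.32.

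**Figure D3:**
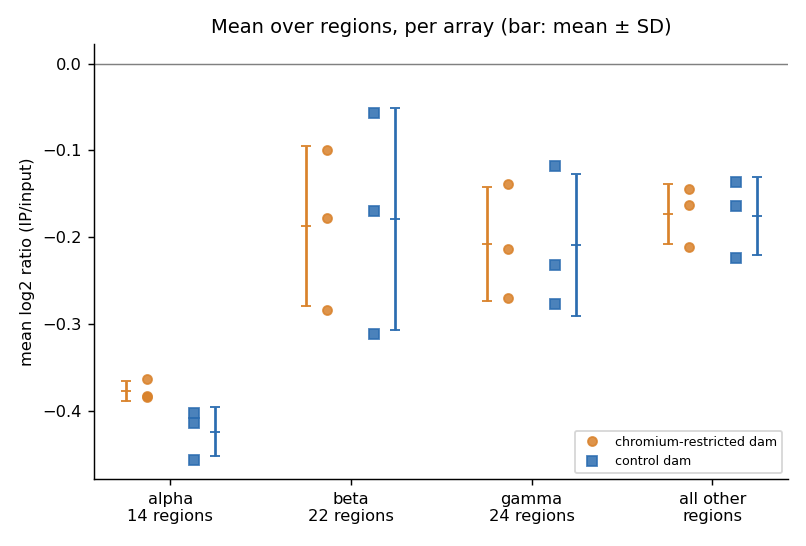
Mean log2 ratio of IP over input over the regions of each segment and over all other regions (vertical axis, array median at 0), 1 point per array, with the mean ± SD of each group of 3 arrays beside the points. Alpha lies between -0.46 and -0.36 on the 6 arrays, below beta and gamma on every array, and the groups overlap in beta, gamma and all other regions.

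The mean of the span, like that of all other regions, followed the order of the arrays' brightness. It was highest, at -0.16, on control array 2, which had the lowest median input signal (38.1 intensity units), and lowest, at -0.33, on control array 1, which had the highest (98.4 intensity units). The 4 arrays between them followed the same order, from -0.18 on chromium-restricted array 3 (46.1 intensity units) and -0.24 on chromium-restricted array 1 (53.1 intensity units) to -0.25 on control array 3 (60.5 intensity units) and -0.30 on chromium-restricted array 2 (83.9 intensity units). Over all other regions the mean ran in the same order, from -0.14 on control array 2 to -0.22 on control array 1. The means of the alpha segment did not follow this order. The part of input brightness in the differences between arrays was not tested for these means.

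Single probes within a region differed far more than arrays did for a single probe. The SD among the probes of a region had a median of 1.096 and ran from 0.65 to 2.40, while the SD over arrays of a probe had a median of 0.30. Over the 469 probes, pairs of arrays correlated at 0.883 to 0.966. All 60 regions held probes on both sides of the array median. By limma's test over all probes 158 member probes lay above the array median (33.7%, against 40.7% of all probes) and 211 below (45.0%, against 40.5%).

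The tails of the probe distribution were near those of the array. A log2 ratio below -2 was found for 41 member probes (8.74%, against 8.60% of all probes), and one above 1 for 78 (16.6%, against 16.8%). Below -3 there were 15 member probes, 7 of 115 in alpha, 3 of 171 in beta and 5 of 183 in gamma. Of the 15, 11 had input well above background on 6 arrays and IP on 0, so that their ratio is only an upper bound.

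The lowest probe of the span was at chr18:37106086-37106130, in alpha region 3. It read -5.34, -5.12 and -5.09 on the chromium-restricted arrays and -5.37, -4.96 and -5.46 on the control arrays, a mean of -5.22 that is lower than all but 0.18% of the array's probes. The second lowest, at chr18:37151874-37151931 in alpha region 8, had a mean of -4.59 ± 0.59 (SD, n = 6). Both had input well above background on 6 arrays and IP well above it on 0. In gamma the 2 lowest lay in region 6, at chr18:37840380-37840433 with a mean of -3.95 ± 0.38 and at chr18:37839552-37839604 with -3.89 ± 0.28 (SD, n = 6 each), and these too lacked IP signal. In beta they were at chr18:37500261-37500318 in region 7 with -3.14 ± 0.22, and at chr18:37648959-37649018 in region 18 with -3.08 ± 0.23 (SD, n = 6 each). The latter had both channels above background.

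At the other end, the highest probe, at chr18:37873854-37873908 in gamma region 11, read 2.55, 2.47 and 3.32 on the chromium-restricted arrays and 3.12, 3.05 and 2.78 on the control arrays. It had IP above background on 6 arrays and input on 0, so that its mean of 2.88 rests on a background denominator and is only a lower bound. In gamma it was followed by a probe of region 12, at chr18:37878911-37878955, with 2.35 ± 0.34 (SD, n = 6), whose input was not above background on all arrays. The highest alpha probes lay in regions 2 and 7, at chr18:37098501-37098557 with 2.49 ± 0.35 and at chr18:37132694-37132751 with 2.43 ± 0.13 (SD, n = 6 each). Of these the probe of region 7 had both channels above background, although its region was among the lowest of alpha with the processed signals. The input of the probe of region 2 was not above background on all arrays. The highest beta probes were at chr18:37663849-37663896 in region 20 with 2.33 ± 0.16, both channels above background, and at chr18:37580331-37580390 in region 11 with 2.16 ± 0.33 (SD, n = 6 each), where again input was not above background on all arrays.

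**Figure D4:**
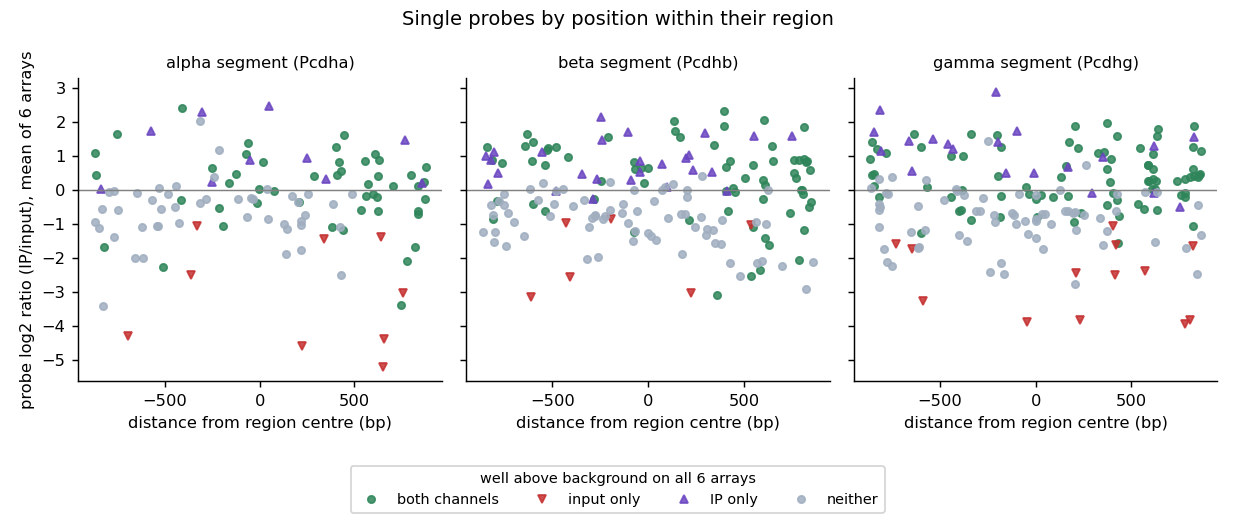
Mean log2 ratio of IP over input over 6 arrays of each of the 467 member probes in regions (vertical axis) by distance from the centre of its region in bp (horizontal axis), coloured by the channels that were well above background on all 6 arrays. Probes of both signs lie at all distances, and the lowest probes, down to -5.22, are mostly those with input but not IP well above background.

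The comparison the study was designed for is that of offspring of chromium-restricted dams with offspring of control dams. Among the protocadherin regions 0 of 60 differed at an adjusted p under 0.05 (limma with Benjamini-Hochberg adjustment over all regions), as did 0% of all regions. At an unadjusted p under 0.05 there were 3 of 60 (5%, against 0.896% of all regions), 2 higher (0.409% of all regions) and 1 lower (0.487% of all regions) in the chromium-restricted group. With normexp correction, in the authors' value table and with probes well above background the count was 0 each time (0.168%, 0.678% and 0.409% of all regions). The groups of arrays did not overlap in 6 of 60 regions (10%, against 4.44% of all regions). In 4 the chromium-restricted group was higher (2.49% of all regions) and in 2 lower (1.95% of all regions), and groups did not overlap in 1, 0 and 0 regions under the same 3 alternatives (2.66%, 4.53% and 3.81% of all regions). Without chromium-restricted array 1 the count at an unadjusted p under 0.05 was 1 (0.591% of all regions). It was 14 with array weights and 6 with the array's input signal as a covariate, where it was 8.61% and 3.86% of all regions. Without chromium-restricted array 2 or 3, or control array 1 or 2, the groups did not overlap in 10, 10, 12 and 14 regions, where 13.6%, 12.3%, 14.7% and 12.5% of all regions did not.

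The last field of the barcode in the file headers was 2 for every chromium-restricted array and 4 for every control array. Taken as the position on the slide, it cannot be told apart from diet. The arrays with the same number in both groups had the same scan date in the headers, and are said here to share a scan. The 95% confidence interval of the difference lay within 0.5 log2 units of 0 for 57 of the 60 regions, and over all of them the bounds ran from -0.51 to 0.55. With 3 arrays per group, differences within these intervals may have gone undetected. The intervals are taken before adjustment and are not a limit of detection. Over all regions of the array differences ran from -0.50 to 0.49, and 0 passed after adjustment.

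Gamma region 2 had the smallest p of the span, and it may lie outside the Pcdhg genes, as said above. It read 0.66, 0.56 and 0.63 on the chromium-restricted arrays and 0.37, 0.44 and 0.35 on the control arrays. Each chromium-restricted array was above every control array, with a difference of 0.23 (SE 0.07, 95% confidence interval 0.06 to 0.40). limma's unadjusted p was 0.014 and its adjusted p 0.99996, and within scans 1, 2 and 3 the difference was 0.30, 0.11 and 0.28. Of its 7 probes 2 were above background in both channels, too few for the region to be kept among bright ones, and the difference was 0.0096 with normexp and 0.047 in the authors' value table.

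Alpha region 7 was among the lowest of its segment with the processed signals. It read -0.54, -0.59 and -0.45 on the chromium-restricted arrays and -0.84, -0.71 and -0.66 on the control arrays. The groups did not overlap, and the difference was 0.22 (SE 0.08, 95% confidence interval 0.03 to 0.40), with an unadjusted p of 0.030 from limma and the same adjusted p of 0.99996. The sign turned with normexp, to -0.0086. In the authors' value table the difference was 0.0067.

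Gamma region 21 (chr18:37924163-37925725) was the region with the smallest p among those lower in the chromium-restricted group. It read -0.64, -0.64 and -0.63 on the chromium-restricted arrays and -0.38, -0.25 and -0.52 on the control arrays. The chromium-restricted arrays lay together below all control arrays, with a difference of -0.26 (SE 0.09, 95% confidence interval -0.45 to -0.06). limma's unadjusted p was 0.017 and its adjusted p again 0.99996. It was lower in each of the 3 scans, by -0.27, -0.39 and -0.11, and had 2 of 7 probes above background in both channels. The difference was -0.044 with normexp and -0.059 in the authors' value table.

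The other regions without overlap had smaller differences. Beta region 14 (chr18:37606142-37607667) was at 0.23 ± 0.08 in the chromium-restricted group and 0.06 ± 0.10 in controls (SD, n = 3 each). Beta region 17 was at 0.48 ± 0.02 and 0.39 ± 0.04 (SD, n = 3 each), with 5 of 8 probes above background. Gamma region 12 was at -0.08 ± 0.03 and 0.02 ± 0.06 (SD, n = 3 each), a difference of -0.10 that turned to 0.11 with probes well above background and to 0.18 with the median over its probes. limma's unadjusted p for these 3 regions was 0.078, 0.22 and 0.19.

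Next in order of p were alpha region 10, higher by 0.19 (SE 0.14) in the chromium-restricted group, and beta regions 4 (chr18:37465817-37467508) and 7, with differences of -0.18 (SE 0.13) and -0.11 (SE 0.08). The groups overlapped in each, and limma's unadjusted p was 0.21, 0.20 and 0.21. With probes well above background the sign of all 3 turned, to -0.014, 0.045 and 0.049. Among the 32 regions kept with those probes, differences ran from -0.10 to 0.11, and the smallest unadjusted p was 0.25.

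**Figure D5:**
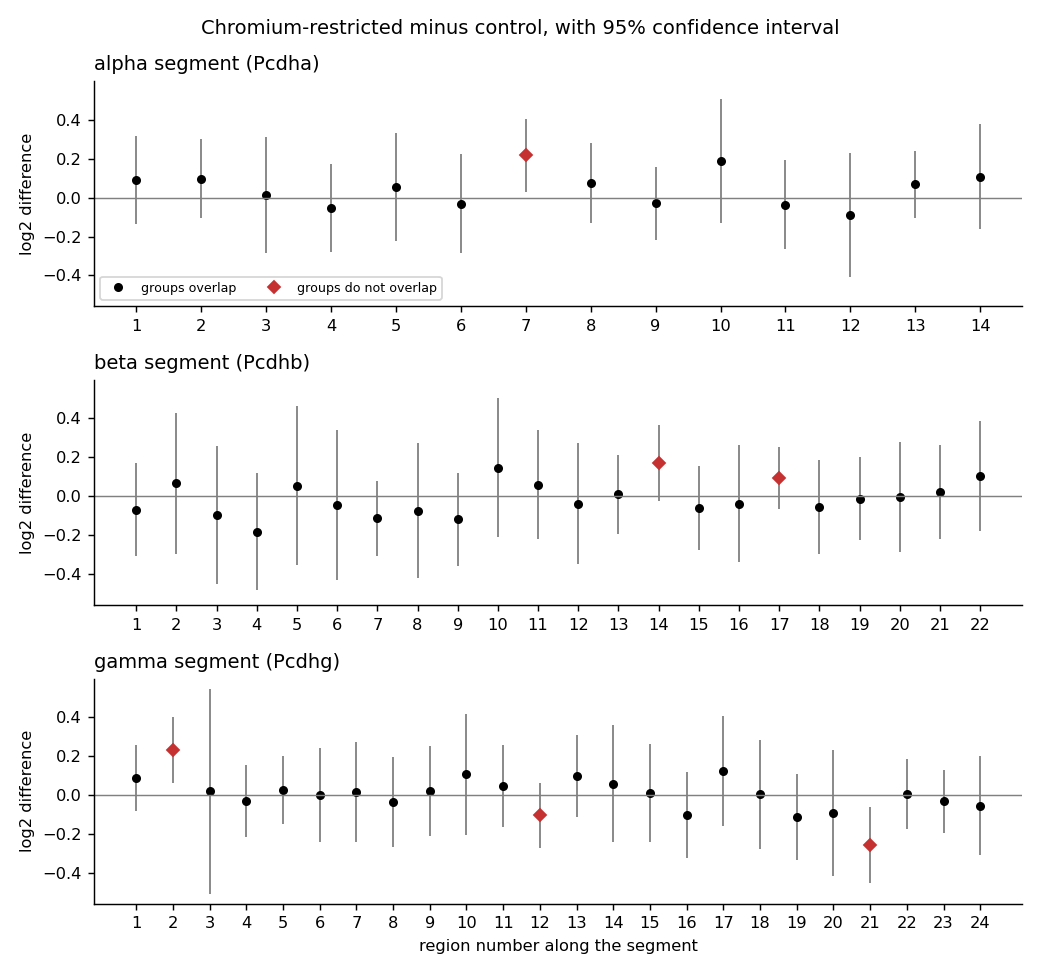
Difference in log2 ratio of IP over input, chromium-restricted minus control (vertical axis), for each of the 60 regions in order along its segment, with the 95% confidence interval from limma; diamonds mark the 6 regions in which the arrays of the groups do not overlap. The intervals of alpha region 7 and gamma regions 2 and 21 leave out 0 before adjustment, and after adjustment over all regions none of the 60 differed.

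Single member probes were compared in the same way. Of 469 probes 0 differed at an adjusted p under 0.05 (limma, against 0% of all probes). At an unadjusted p under 0.05 there were 14, or 2.99%, against 1.3% of all probes, 9 higher (0.685% of all probes) and 5 lower (0.612% of all probes) in the chromium-restricted group. Of these 14 probes, 13 lacked a signal well above background in at least 1 channel or array, and the remaining one lies in gamma region 18. The groups did not overlap at 28 member probes, or 5.97%, against 4.27% of all probes. At 14 of these the chromium-restricted group was higher (2.13% of all probes) and at 14 lower (2.14% of all probes). The count at an unadjusted p under 0.05 was 25 without control array 1 (2.38% of all probes), 127 with array weights (19.4%) and 27 with the input covariate (3.90%).

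Averaged over the regions of the span, of beta or of gamma, the groups differed by less than their spread. The span stood at -0.24 ± 0.06 with chromium restriction and -0.25 ± 0.08 with the control diet (SD, n = 3 each), a difference of 0.0087. Within scans 1, 2 and 3 this difference was 0.09, -0.14 and 0.07. In beta the groups stood at -0.19 ± 0.09 and -0.18 ± 0.13, and in gamma at -0.21 ± 0.07 and -0.21 ± 0.08 (SD, n = 3 each).

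In alpha the means were -0.38 ± 0.01 in the chromium-restricted group and -0.42 ± 0.03 in controls (SD, n = 3 each), with each chromium-restricted array above each control array. The difference of 0.048 was 0.07, 0.04 and 0.03 within scans 1, 2 and 3, but -0.0082 with normexp correction and 0.0051 in the authors' value table. Of the 14 alpha regions 9 were higher and 5 lower in the chromium-restricted group, against 9 and 13 in beta and 14 and 10 in gamma. No test was made over the regions of a segment.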

How the data were processed

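Agilent Feature Extraction 11.0.1.1 produced the scanner files, per the file headers. The deposited processed signals are intensity values with a local background subtracted and a linear factor per dye applied (5.00 to 11.6 for input, 3.79 to 5.50 for IP), per the file headers. The log10 ratio that the scanner files also hold, as deposited, served only to check direction. The authors' value table holds normalized log ratios taken as log2, since its base, centring and method are not given in the sources used here; it runs red over green, as set against each array's scanner values (r 0.751 to 0.854). Its columns have medians of 0.040, 0.037 and 0.035 (chromium-restricted 1, 2 and 3) and 0.037, 0.037 and 0.031 (control 1, 2 and 3). The deposited flags for background and outliers were used as given.

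From these, log2 ratios of the processed signals were centred on each array's median over non-control probes, with no loess or quantile step, so a gain or loss shared by all probes is removed. The 5827 control spots and 360 of 174638 probes with an outlier flag were left out. Regions, joined at 1000 bp with at least 3 probes, are means over probes. Linear models with a term for group were fitted to all 6 arrays with lmFit and eBayes of limma 3.58.1 in R 4.3.3 (tables read with the package data.table, version 1.17.8), on all regions or all probes, with Benjamini-Hochberg adjustment. The same fit gave the test of the level against 0 and the intervals. It was also run on simulated data with noise independent between arrays. The group shifts simulated were all larger than any region difference of the span, so that run does not cover differences of that size. Plots were made in Python 3.11.15 using matplotlib 3.10.9. Differences are chromium-restricted minus control, and the number of arrays limits the precision.

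Members, segments and lists were chosen with earlier results of these data known. Regions named are, per segment, the 3 highest and 3 lowest, the 4 per direction with the smallest p between groups, the 2 with the largest SD, those without overlap, and, per segment, the 2 highest and 2 lowest probes. The bright regions beside the far gaps and those with the largest moves under the bright-probe filter were named after their values were seen. Alternatives were normexp (offset 50, on median spot signals, since no mean-signal column was used here), other centrings, the authors' table, probes well above background in both channels or in input, outlier spots kept, the median over probes, other region limits, array weights, an input covariate, a minimum size (treat), a replicate block and leaving out each array. Arrays with the same number shared a scan, but the labels do not call them pairs, so the numbers were not taken to pair samples. The correlations of their deviations from group means were 0.15, -0.59 and 0.20 (numbers 1, 2 and 3). With 3 arrays per group these cannot settle whether samples were paired. The planned check of hepatocyte and adipocyte promoters was not made, since no gene symbols were paired with probes.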

Additional observations from a re-analysis of the deposited data

How the results depend on the processing

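No region or probe of the span passed the adjusted threshold between groups under any alternative run. Of 300 alternative values of the counts and means, 243 stayed within 1.5 times the count or 1 SD over arrays of the mean, a limit within which a small mean difference can change sign. Of 388 alternative values of named regions, 347 kept their sign and their side of the threshold, though not always their size. The rest follow, and the cause was not tested unless stated.

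With normexp the count of regions at an unadjusted p under 0.05 was 0 (0.168% of all), that without overlap 1 (2.66%) and that of probes 2 (0.245%). The alpha difference between groups was -0.0082, the span differed from other regions by -0.13 and from other regions of chromosome 18 by -0.14, and beta from gamma by -0.016. The difference between groups turned to -0.0086 in alpha region 7, -0.038 in alpha region 10 and 0.015 in beta region 7. The levels of alpha regions 4, 12 and 2 turned to 0.068, -0.078 and -0.16, and that of gamma region 2, at 0.11, no longer passed. Without centring alpha region 4 was at 0.044, and gamma region 3, at -0.26, no longer passed. Centred on probes well above background, 7 regions lay above the median (16.0% of all regions), alpha region 4 now passed at -0.26, and alpha regions 12 and 2 and beta region 5 were at -0.22, -0.20 and -0.22.

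In the table of the authors' values, 0 regions had an unadjusted p under 0.05 (0.678% of all) and 0 did not overlap (4.53%), while 9 lay above the median (39.4%) and 48 below (49.0%), and 3 probes had an unadjusted p under 0.05 (0.767%). The alpha difference was 0.0051, the span differed by -0.38 from other regions and by -0.40 from others of chromosome 18, and beta from gamma by -0.061. Differences turned to -0.032 in alpha region 10 and 0.0057 in beta region 7. Levels turned to -0.19 and -0.63 in alpha regions 12 and 2, -0.027 and -0.12 in gamma regions 18 and 2, and -0.32 in beta region 5, and alpha region 4 now passed at -0.11.

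With probes well above background, which leaves fewer regions, 0 regions had an unadjusted p under 0.05 (0.409% of all), 0 did not overlap (3.81%), 22 lay above the median (55%) and 7 below (26.9%). There 1 probe had an unadjusted p under 0.05 (0.733%) and 60 lay below (32.8%). The span was higher by 0.13 than other regions and by 0.15 than others of chromosome 18, and alpha was lower than beta by -0.51 and than gamma by -0.52. Differences turned to -0.014 in alpha region 10, 0.11 in gamma region 12, 0.045 in beta region 4 and 0.049 in beta region 7, and the level of alpha region 4 to 0.29. With the median over probes alpha differed from beta by -0.090 and from gamma by -0.11, and beta from gamma by -0.017. The difference of gamma region 12 turned to 0.18 and the level of alpha region 4 to 0.20, while beta region 5 now passed at 0.74. With probes of input well above background, whatever their IP, an alternative added after seeing the data, 18 regions lay below the median (42.4% of all), alpha differed from beta by -0.83 and from gamma by -0.50, and beta from gamma by 0.32.

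Array weights, which ranged from 0.46 for control array 2 to 4.32 for control array 3, gave 14 regions (8.61% of all) and 127 probes (19.4%) at an unadjusted p under 0.05, and the input covariate 6 (3.86%) and 27 (3.90%). Against a minimum of 0.5, 1 region lay above the median (4.03% of all) and 13 below (14.7%), and 105 (24.5%) and 135 (26.6%) probes. Regions joined at 500 bp put beta above gamma by 0.076. Leaving out the first 2 gamma regions, which may lie outside the Pcdhg genes, gave 0.077. This alternative was chosen after seeing the data. Within scan 1 the group difference was 0.091 for the span, 0.073 for alpha and 0.13 for beta; within scan 2 it was -0.14 for the span, -0.23 for beta and -0.15 for gamma; within scan 3 it was 0.093 for gamma. With the replicate block, 2 regions and 15 probes reached an unadjusted p under 0.05 and 0 an adjusted one, and the block changed no other call.

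Leaving out 1 array at a time gave 1 to 3 regions and 10 to 25 probes at an unadjusted p under 0.05, and 7 to 14 regions without overlap, where fewer arrays overlap less often by construction. The levels of alpha region 4 ranged from -0.073 to 0.00063, alpha region 12 from -0.057 to 0.066, alpha region 2 from -0.018 to 0.048 and beta region 5 from -0.10 to 0.10. Gamma region 3 ranged from -0.45 to -0.25 and no longer passed without chromium-restricted array 1 or 2 or control array 1 or 3. Alpha stayed below beta (-0.25 to -0.19) and gamma (-0.21 to -0.17), as it did under every alternative run. Dim probes limit the depth: 36 of the 60 regions had most of their probes not well above background.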
